A study of Mus musculus with 111 samples.

Results

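ADAMTS proteases are secreted zinc metalloproteinases that carry thrombospondin repeats, and 9 of them (Adamts1, Adamts2, Adamts4, Adamts5, Adamts8, Adamts9, Adamts12, Adamts14 and Adamts15) were followed in mouse lung after bleomycin, an antitumour antibiotic that damages DNA and scars the lung. The members were taken by name, with earlier results of these data known. A member was measured where the array annotation gave at least 1 probeset to that gene alone. Of the 9 members 7 were measured, with 13 probesets, among 15707 genes with such a probeset, and Adamts2 and Adamts14, which remove the amino propeptide of fibrillar procollagens, were not analysed here.

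Male C57BL6/J mice, 7 to 9 weeks old by the methods, received 1 intratracheal spray of bleomycin at 2 U/kg or of saline and were killed after 1, 2, 7, 14, 21, 28 or 35 days. RNA from both lungs of each mouse was amplified and hybridized to 1 Affymetrix Mouse 430 2.0 array. Each of the 14 groups held 8 mice, except 7 saline mice on day 14, where the authors had set 1 array aside. The only difference stated between the mice of a day was the spray they received. The tissue is whole lung, so fewer cells of a type and less RNA per cell cannot be told apart, and whether the arrays of different days were processed together is not given in the sources used here. Markers of alveolar epithelium, which define the tissue, had mean log2 levels from 12.44 to 12.97 over the 111 arrays.

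Members of the family differ in what they cut. Adamts1, Adamts4, Adamts5, Adamts8, Adamts9 and Adamts15 cleave aggrecan or versican, large proteoglycans that bind hyaluronan and fill the provisional matrix of injured tissue. Adamts12 cleaves cartilage oligomeric matrix protein, and Timp3 is the main tissue inhibitor of several family members. In the fibrotic lung the family is studied as a source of matrix turnover.

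Levels are log2 values, and a difference of 1 between bleomycin and saline is a 2-fold change. A gene was called higher or lower on a day when limma, fitted over all 15707 genes, gave an adjusted p under 0.05, and differentially expressed when it also changed more than 2-fold. Errors of differences are standard errors (SE) of that fit, in which all 14 groups share 1 estimate of the spread of a gene. Levels of different probesets are not compared, since each probeset binds with its own strength.

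Among the 49 pairs of a measured member and a day, 15 were higher in bleomycin mice, 10 were lower and 24 were not called. As shares these are 30.6% higher and 20.4% lower, and over all pairs of a gene and a day on the array 17.9% were higher and 16.3% lower. Of the 15 higher pairs 10 were over 2-fold, 7 of Adamts4 and 3 of Adamts12. This is 20.4% of member pairs, beside 1.28% of all gene-day pairs. The members were chosen with earlier results of these data known, so these shares are no test of the family. Of 8 other ADAMTS genes measured, none was called over 2-fold on any day. None of the 10 lower pairs was over 2-fold by limma, where 11 pairs were lower at an unadjusted p under 0.05, and the background of decreases over 2-fold was 0.339%. In 4 pairs, Adamts4 and Adamts12 on days 7 and 14, the lowest bleomycin mouse lay above the highest saline mouse, as in 4.46% of all gene-day pairs. The median difference of the 7 members ran from -0.10 to 0.26 over the days, and that of all genes from -0.01 to 0.02.

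**Figure D1:**
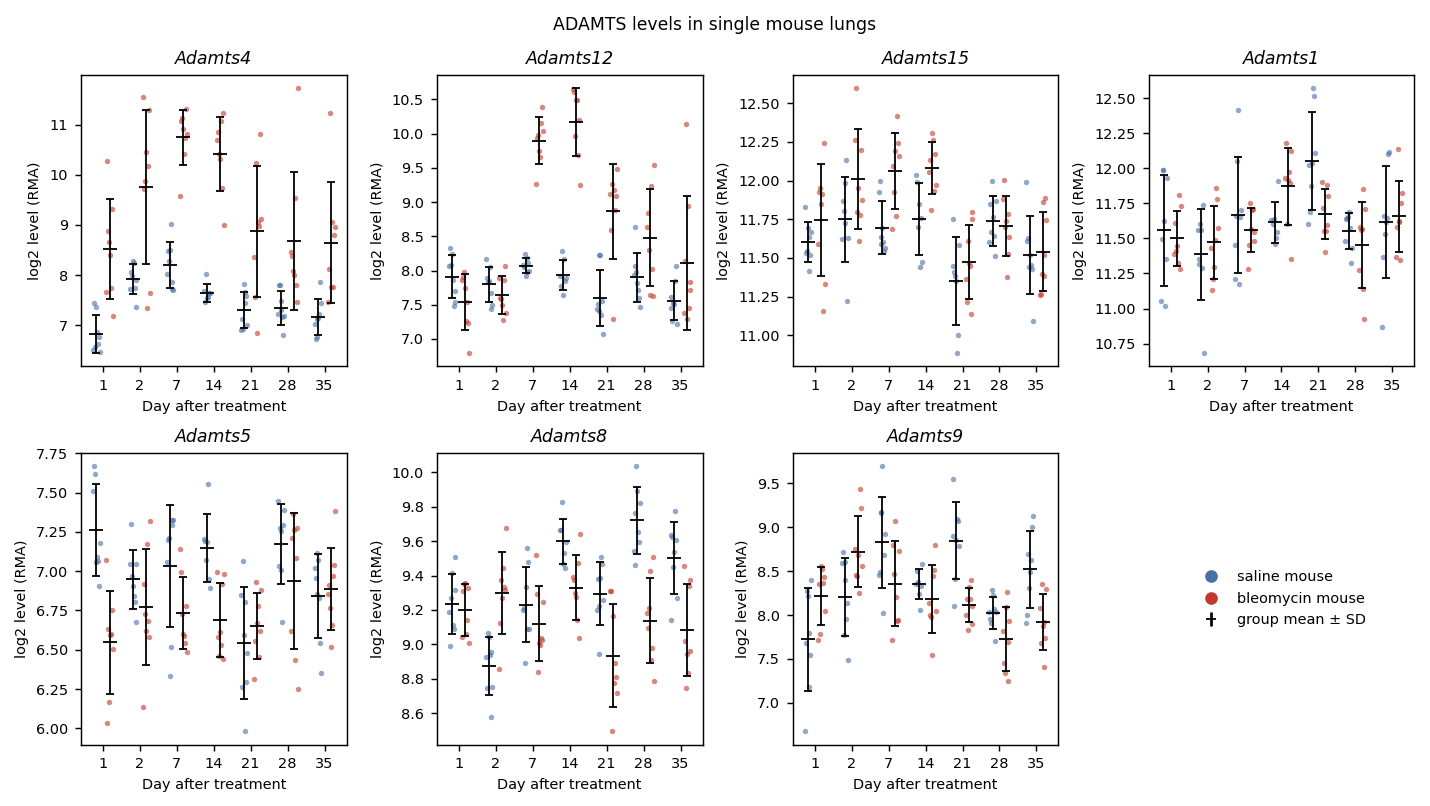
The vertical axis is the log2 level of 1 gene in each of 7 panels and the horizontal axis the days since the spray, each point 1 mouse, saline in blue and bleomycin in red, with group mean and SD in black (n = 8 a group, 7 for saline on day 14). Adamts4 and Adamts12 separate the 2 groups fully on days 7 and 14, and in the other 5 panels the groups overlap on every day.

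Adamts4, an aggrecanase known to be induced by inflammatory cytokines, was higher on all 7 days. On day 1 levels ran from 6.47 (median 6.70) to 7.45 in saline mice and from 7.19 (median 8.53) to 10.28 in bleomycin mice. The groups touched through 1 bleomycin mouse, the other 7 lying above every saline mouse. The difference was 1.69 (SE 0.42, 3.23-fold, limma adjusted p = 0.00109), and 14.7% of all genes were higher that day. It was 1.03 against all saline groups (limma adjusted p = 0.0117). On day 2 saline mice ran from 7.37 (median 7.95) to 8.29 and bleomycin mice from 7.35 (median 10.02) to 11.55. Replicates 5 and 8 lay within or below the saline range, and the other 6 bleomycin mice lay above it. The difference was 1.84 (SE 0.42, 3.58-fold, limma adjusted p = 0.000348).

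The differences of Adamts4 were largest on days 7 and 14. On day 7 saline mice ran from 7.70 (median 8.15) to 9.02 and bleomycin mice from 9.57 (median 10.86) to 11.31. On day 14 saline mice ran from 7.46 (median 7.64) to 8.03 and bleomycin mice from 9.004 (median 10.56) to 11.23. All 8 bleomycin mice stood above all saline mice on both days. The differences were 2.55 (SE 0.42, 5.85-fold, limma adjusted p = 2.25e-07) and 2.77 (SE 0.44, 6.81-fold, limma adjusted p = 1.08e-07).

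The Adamts4 SD of bleomycin mice was 1.00 and 1.54 on days 1 and 2 and 0.55 and 0.74 on days 7 and 14. From day 21 on the bleomycin mice again lay far apart. Their Adamts4 levels ran from 6.84 (median 9.02) to 10.82 on day 21, from 7.46 (median 8.22) to 11.73 on day 28 and from 7.47 (median 8.46) to 11.23 on day 35. Saline mice kept to ranges of 6.92 to 7.82, 6.81 to 7.81 and 6.74 to 7.86 on these days. Thus some bleomycin mice lay as high as those of day 14 while others lay among the saline mice, and 6, 7 and 5 of 8 exceeded every saline mouse of their day. The SD of the bleomycin mice was 1.30, 1.38 and 1.21 on the 3 days, against 0.36, 0.34 and 0.37 in saline mice. The SE and p that follow rest on the spread shared by all 14 groups and not on these SDs. The differences were 1.56, 1.33 and 1.48 (SE 0.42 for each), with limma adjusted p of 0.00161, 0.0142 and 0.00438, where 20.5%, 11.5% and 16.9% of all genes were higher. The call of day 28 rested on replicate 8, the mouse at 11.73. Without it the difference was 0.90, and the limma adjusted p was 0.115. On day 35 without replicate 3, the mouse at 11.23, the difference was 1.11 with a limma adjusted p of 0.0375.

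The array held 2 probesets for Adamts4, and they gave the same picture. Each was higher on all 7 days, and their log2 differences were at most 0.0645 apart.

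**Figure D2:**
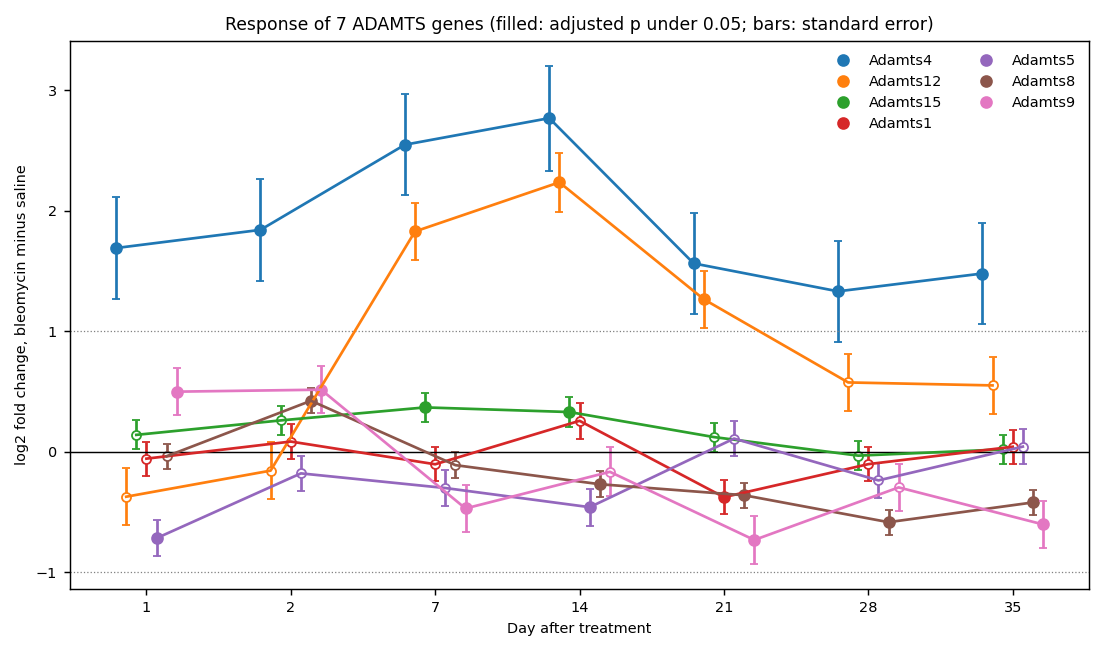
Log2 difference between bleomycin and saline mice (vertical axis) by day (horizontal axis) for each measured gene, with bars of 1 standard error, filled points for an adjusted p under 0.05, and dotted lines at 2-fold in either direction. Adamts4 starts at 1.69 on day 1, Adamts12 starts at -0.37 and reaches 1.83 on day 7, and the other genes stay within the dotted lines.

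Adamts12, which cleaves cartilage oligomeric matrix protein, followed another course. On day 1 saline mice ran from 7.48 (median 7.97) to 8.33 and bleomycin mice from 6.79 (median 7.64) to 7.98. The ranges overlapped, and the differences of -0.37 (SE 0.24) on day 1 and -0.16 (SE 0.24) on day 2 did not pass the test. On day 7 saline mice ran from 7.92 (median 8.07) to 8.24 and bleomycin mice from 9.26 (median 9.96) to 10.39. On day 14 saline mice ran from 7.65 (median 7.90) to 8.28 and bleomycin mice from 9.25 (median 10.34) to 10.66. The lowest bleomycin mouse stood about 1 log2 unit above the highest saline mouse on both days. The differences were 1.83 (SE 0.24, 3.55-fold, limma adjusted p = 1.53e-10) and 2.24 (SE 0.24, 4.71-fold, limma adjusted p = 1.37e-12). Beside the 3 members higher on each of these days, 25.7% of all genes were higher on day 7 and 21.9% on day 14.

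On day 21 Adamts12 was still higher. Saline mice ran from 7.07 (median 7.47) to 8.23 and bleomycin mice from 7.29 (median 9.10) to 9.48. Of the 8 bleomycin mice 7 stood above every saline mouse and replicate 4 lay at 7.29 among the saline mice. The difference was 1.27 (SE 0.24, 2.40-fold, limma adjusted p = 6.69e-06), and without replicate 4 it was 1.49. That mouse had Adamts4 at 6.84, below every saline mouse, and its array was the one that correlated least with the rest of its group.

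On days 28 and 35 the differences of Adamts12 were 0.58 and 0.55 (SE 0.24), and neither passed the test (limma adjusted p = 0.0634 and 0.0667). Bleomycin mice ran from 7.62 (median 8.46) to 9.54 on day 28 and from 7.30 (median 7.78) to 10.14 on day 35, with saline mice from 7.47 to 8.64 and from 7.22 to 8.06. On each of these days 3 bleomycin mice stood above all saline mice. These values depended on single arrays and on the control. Against all saline groups day 28 passed (0.65, limma adjusted p = 0.00185), and day 35 did not (0.29, limma adjusted p = 0.202). Leaving out replicate 4, 6 or 7 on day 28 brought the adjusted p of limma under 0.05, as did leaving out 1, 4 or 6 on day 35, whereas without replicate 3 of day 35 the difference was 0.26 (limma adjusted p = 0.421).

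Promoter sequences of RefSeq (GRCm38.p6) covered 5 of the 9 members, 3 of them measured. The 250 bases before the annotated start are shown for those 3, and any part of these sequences in the courses of the genes was not tested. Capitals mark matches, on either strand, to a TATA box (TATAAA) or a GC box (GGGCGG). An AP-1 site (TGANTCA) and a STAT site (TTCNNNGAA) were also sought on both strands, and none of these motifs overlaps another in the windows shown. The Adamts12 window is chr15:11064523-11064772 on the plus strand, that of Adamts1 chr16:85803114-85803363 and that of Adamts9 chr6:92943535-92943784, both on the minus strand, and each is printed 5′ to 3′.
Adamts12: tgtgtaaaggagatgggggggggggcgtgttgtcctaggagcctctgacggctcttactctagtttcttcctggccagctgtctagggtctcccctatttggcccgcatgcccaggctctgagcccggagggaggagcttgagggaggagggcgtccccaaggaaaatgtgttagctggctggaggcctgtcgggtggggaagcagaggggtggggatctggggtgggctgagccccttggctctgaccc
Adamts1: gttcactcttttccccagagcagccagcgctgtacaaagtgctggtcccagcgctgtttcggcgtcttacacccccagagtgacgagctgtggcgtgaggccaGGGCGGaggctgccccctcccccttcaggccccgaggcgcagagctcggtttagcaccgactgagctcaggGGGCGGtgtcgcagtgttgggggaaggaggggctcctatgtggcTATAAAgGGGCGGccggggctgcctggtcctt
Adamts9: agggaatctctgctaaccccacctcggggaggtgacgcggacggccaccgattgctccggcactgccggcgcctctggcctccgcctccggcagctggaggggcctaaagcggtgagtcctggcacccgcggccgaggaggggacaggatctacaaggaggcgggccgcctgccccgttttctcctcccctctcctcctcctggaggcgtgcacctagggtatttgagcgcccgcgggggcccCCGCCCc
The Adamts12 window held no match to the 4 motifs, the Adamts1 window 1 TATA box and 3 GC boxes, and the Adamts9 window 1 GC box. Of all 32851 such windows 12.4% held the TATA box, 32.7% the GC box, 6.75% the AP-1 site and 7.02% the STAT site. The GC content was 63.2%, 65.6% and 71.2%.

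Adamts15, another aggrecanase, was higher on days 7 and 14 only. Saline mice ran from 11.55 (median 11.62) to 11.995 on day 7 and bleomycin mice from 11.69 (median 12.13) to 12.42. On day 14 saline mice ran from 11.44 (median 11.76) to 12.04 and bleomycin mice from 11.81 (median 12.09) to 12.31. The ranges overlapped, with 5 of 8 bleomycin mice above every saline mouse on each day. The differences were 0.37 (SE 0.12, limma adjusted p = 0.00789) and 0.33 (SE 0.12, limma adjusted p = 0.026), both under 1.3-fold. Leaving out replicate 4 or 5 took the day 14 value past the threshold, with a highest limma adjusted p of 0.0549. On the other 5 days differences ran from -0.03 to 0.26, and none passed the test, though day 2 did without replicate 5 (0.32, limma adjusted p = 0.0404) and against all saline groups (0.38, limma adjusted p = 0.000291).

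Adamts1, which cleaves versican and aggrecan, was called on day 21 alone. Saline mice ran from 11.60 (median 12.03) to 12.57 and bleomycin mice from 11.40 (median 11.66) to 11.90. Of the 8 bleomycin mice 4 lay below every saline mouse and all 8 below the saline mean, and the difference was -0.38 (SE 0.14, limma adjusted p = 0.0273). Beside the 3 members lower that day, 18.9% of all genes were lower. The value was close to the threshold: without replicate 4 it was -0.34 with a limma adjusted p of 0.0558. The saline mean of day 21, 12.05, was also the highest of the 7 saline groups, and against the mean of all saline groups the difference was 0.0415. On the other days differences ran from -0.10 to 0.26 and did not pass the test.

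Adamts8, a member with high expression in lung that also inhibits angiogenesis, moved in both directions. On day 2 saline mice ran from 8.58 (median 8.93) to 9.07 and bleomycin mice from 8.85 (median 9.33) to 9.68. The bleomycin mice were higher, 7 of 8 above every saline mouse, by 0.42 (SE 0.10, limma adjusted p = 0.000995), where 14.2% of all genes were higher. The saline mean of that day, 8.88, was the lowest of the 7 saline groups. Against all saline groups the difference was -0.0521.

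From day 14 on Adamts8 was lower in bleomycin mice. The differences were -0.27, -0.36, -0.58 and -0.42 on days 14, 21, 28 and 35 (SE 0.11 on day 14 and 0.10 after), with limma adjusted p of 0.0379, 0.00358, 1.59e-05 and 0.00114. Against same-day saline mice the fall was deepest on day 28, to 0.667 of the saline level, when saline mice ran from 9.46 (median 9.71) to 10.04 and bleomycin mice from 8.79 (median 9.14) to 9.51. On that day 7 of 8 bleomycin mice lay below every saline mouse, while 6, 5 and 5 did so on days 14, 21 and 35. The share of all genes that were lower was 19.7%, 18.9%, 11.8% and 12.5% on these days. The saline mean of day 28, 9.72, was the highest of the 7 saline groups. Against all saline groups the differences were -0.02, -0.42, -0.22 and -0.27 on these days (limma adjusted p = 0.826, 5.05e-06, 0.0236 and 0.0047), so that day 14 was not called and day 21 had the lowest value, and day 7 was called at -0.23 (limma adjusted p = 0.00886). The day 14 call was also lost when replicate 3, 4, 5 or 7 was left out, with a highest limma adjusted p of 0.0975.

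Of the 8 endothelial markers 6, 7, 5 and 5 were lower and none higher on days 14, 21, 28 and 35. They were not the only markers to fall. Of 8 general fibroblast markers 5, 5, 4 and 3 were lower on these days, with 1 higher on day 14. Of 8 smooth muscle and pericyte markers 0, 8, 6 and 2 were lower, with 2 higher on day 14. The mean log2 level of the endothelial markers ran from 11.39 to 11.60 in saline and from 10.98 to 11.57 in bleomycin mice on day 28. On day 7, when Adamts8 differed by -0.11 (limma adjusted p = 0.403), 7 of the 8 endothelial markers were lower. Their mean level then ran from 11.35 to 11.70 in saline and from 10.92 to 11.32 in bleomycin mice. The part of any of these cells in the Adamts8 result was not tested.

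Adamts5, the aggrecanase studied most in cartilage, was described by 4 probesets. The most variable of them, 1456969_at, stood for the gene in the fit, and the filter on the 30% dimmest genes, tried as an alternative, left it out. On day 1 its saline levels ran from 6.90 (median 7.14) to 7.67 and its bleomycin levels from 6.04 (median 6.60) to 7.07. Of 8 bleomycin mice 7 lay below every saline mouse, and the difference was -0.72 (SE 0.15, limma adjusted p = 8.68e-05), with 16.7% of all genes lower. It was -0.45 against all saline groups (limma adjusted p = 0.00153). On day 14 saline mice ran from 6.89 (median 7.18) to 7.55 and bleomycin mice from 6.44 (median 6.60) to 7.00. The difference was -0.46 (SE 0.15, limma adjusted p = 0.0104), and 5 of 8 bleomycin mice lay below every saline mouse. On the other 5 days differences ran from -0.30 to 0.11, none past the test with all mice, and day 7 passed without replicate 1 (-0.36, limma adjusted p = 0.0418). Against all saline groups the differences of days 7, 14 and 21 were -0.26, -0.30 and -0.34, all called lower (limma adjusted p = 0.0361, 0.0155 and 0.00718).

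The other 3 Adamts5 probesets showed smaller and steadier decreases. In a fit over all probesets of 1 gene, 1422561_at was lower on 6 days, by -0.33 to -0.22, and missed the threshold on day 35. Probeset 1450658_at was lower on 5 days and 1456404_at on days 7 and 21. All differences of these 3 probesets lay below 0, from -0.35 to -0.11, with none called higher. On day 21 1422561_at differed by -0.24 and 1456969_at by 0.11. The difference between the 2 probesets within each array differed between the groups by -0.34 that day (exact permutation test, two-sided, adjusted p = 0.0218 over 14 tests of Adamts5 and Adamts9 probesets, chosen after the values were seen).

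Adamts9, which cleaves versican and aggrecan and is needed in vascular development, had 3 probesets that did not tell 1 story. The most variable, 1431399_at, was higher on days 1 and 2 and lower on days 7, 21 and 35. On day 2 its saline levels ran from 7.49 (median 8.26) to 8.72 and its bleomycin levels from 8.25 (median 8.62) to 9.43, and all 8 bleomycin mice lay above the saline mean. On day 21 saline mice ran from 8.10 (median 8.88) to 9.55 and bleomycin mice from 7.82 (median 8.14) to 8.40, and all 8 bleomycin mice lay below the saline mean. The groups overlapped on both days. The early differences were 0.50 and 0.52 (SE 0.20, limma adjusted p = 0.0421 and 0.0393), and the later ones -0.47, -0.73 and -0.60 (SE 0.20, limma adjusted p = 0.0403, 0.00155 and 0.0135). Against all saline groups the differences were -0.14 and 0.37 on days 1 and 2 (limma adjusted p = 0.561 and 0.0354). They were -0.24 and -0.44 on days 21 and 35 (limma adjusted p = 0.168 and 0.014), while that of day 7 was -0.0008 (limma adjusted p = 0.997). Day 28 was not called against same-day saline mice (-0.30, limma adjusted p = 0.293). Against all saline groups it was called lower, at -0.63 (limma adjusted p = 0.000359). The saline mean of day 1, 7.72, was the lowest of the 7 and that of day 21, 8.85, the highest. The lower calls stood beside 21.9% of all genes on day 7. The calls of days 1, 2 and 7 were lost when any of 5, 4 and 4 of the 8 bleomycin mice was left out, with a highest limma adjusted p of 0.121.

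Probeset 1437785_at of Adamts9, by contrast, was higher on days 1, 2, 7, 14 and 21, by 0.28 to 0.39, and lower on no day. The third, 1430352_at, was higher on day 1 (0.76, SE 0.22) and passed the test on no other day. Within arrays the gap between 1437785_at and 1431399_at was larger in bleomycin than in saline mice by 0.75, 0.45, 1.12, 0.29 and 0.82 on days 7, 14, 21, 28 and 35, with adjusted p of 0.0218, 0.0152, 0.00217, 0.0378 and 0.0141 (two-sided exact permutation tests, n = 8 and 7 or 8). On days 1 and 2 it was -0.13 and -0.15, and adjusted p was 0.723 for both. The unadjusted p of day 21, 0.000155, was the smallest the test can give. Thus days 1 and 2 were the days on which 1431399_at and 1437785_at were both called higher, and no single direction can be given for Adamts9 on days 7 and 21, when they were called in opposite directions.

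**Figure D3:**
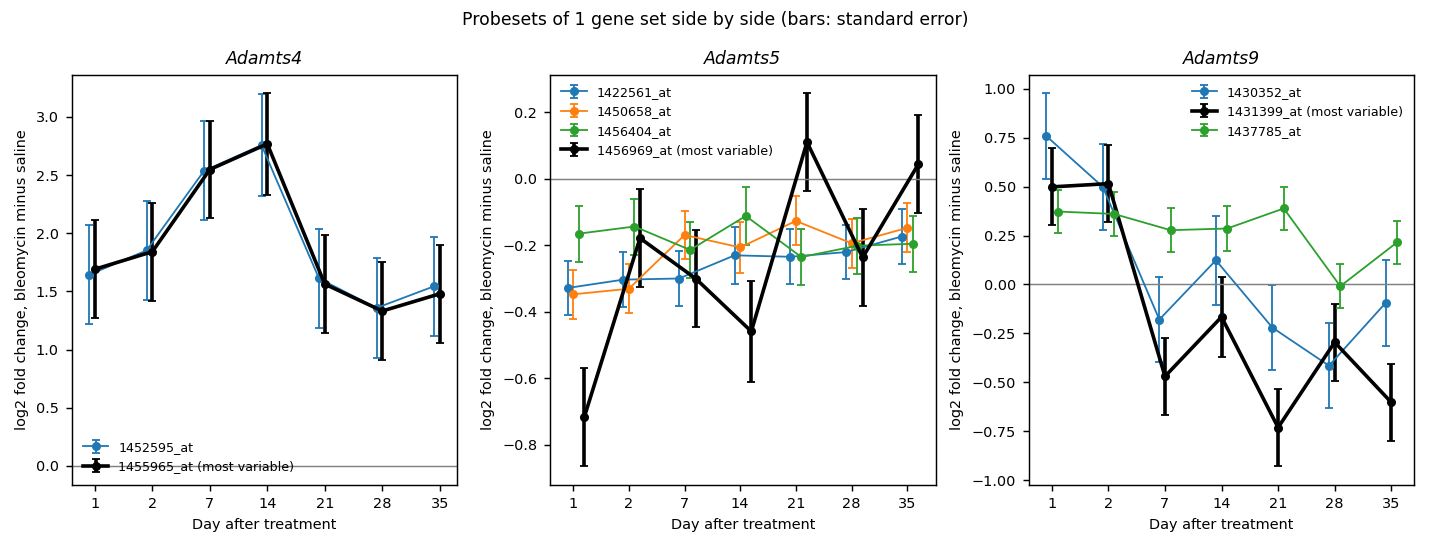
Log2 difference between bleomycin and saline mice (vertical axis) by day (horizontal axis) for every probeset of Adamts4, Adamts5 and Adamts9, with bars of 1 standard error and the most variable probeset in black. The 2 lines of Adamts4 coincide, 3 of 4 lines of Adamts5 stay below 0, and the lines of Adamts9 part after day 2, reaching -0.73 and 0.39 on day 21.

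The study sorts days 1 and 2 into a phase of inflammation, days 7 and 14 into active fibrosis, and the 3 later days into late fibrosis. Of 21 pairs of a member and a difference between phases 12 passed the test, which compared the mean response of 1 phase with that of another. From the inflammation to the active phase the response of Adamts12 rose by 2.30 (SE 0.24, limma adjusted p = 2.54e-13), while the response of Adamts8 fell by 0.38 (SE 0.11, limma adjusted p = 0.00241) and that of Adamts9 fell by 0.83 (SE 0.20, limma adjusted p = 0.000463). The value of Adamts9 is that of 1431399_at, and with 1437785_at it was -0.085 (limma adjusted p = 0.59). A response is the difference from same-day saline mice, so it also falls where saline levels rise. Mean Adamts8 on days 1, 2, 7 and 14 was 9.20, 9.30, 9.12 and 9.33 in bleomycin mice. In saline mice it was 9.24, 8.88, 9.23 and 9.60. Mean 1431399_at was 8.22, 8.72, 8.36 and 8.18 in bleomycin mice and 7.72, 8.21, 8.83 and 8.35 in saline mice. Over all genes 20.4% were higher and 15.8% lower in this contrast. Adamts4 differed by 0.89 (SE 0.42) and did not pass (limma adjusted p = 0.0913).

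From the active to the late phase the responses of Adamts4 and Adamts12 fell by 1.1998 (SE 0.39, limma adjusted p = 0.0139) and 1.23 (SE 0.22, limma adjusted p = 4.17e-06). Those of Adamts8 and Adamts15 differed by -0.26 and -0.31, and that of Adamts5 by 0.35 (limma adjusted p = 0.0311, 0.0267 and 0.0428). Of all genes 11.9% were higher and 14.9% lower. Between the late and the inflammation phase Adamts4 differed by -0.31 (SE 0.38, limma adjusted p = 0.594), whereas Adamts12 was higher by 1.06 (SE 0.21, limma adjusted p = 5.26e-05). The responses of Adamts8 and Adamts9 were lower in this contrast, by -0.65 and -1.05, and that of Adamts5 was higher by 0.42. Their limma adjusted p were 6.46e-08, 2.02e-06 and 0.0122, and 16.3% of all genes were higher and 12.2% lower. Mean Adamts8 on days 21, 28 and 35 was 8.93, 9.14 and 9.08 in bleomycin mice and 9.30, 9.72 and 9.50 in saline mice. Mean 1431399_at was 8.11, 7.73 and 7.92 in bleomycin mice and 8.85, 8.03 and 8.52 in saline mice. The values of Adamts9 and Adamts5 hold for 1431399_at and 1456969_at alone. With 1437785_at Adamts9 differed by -0.169 between the late and the inflammation phase (limma adjusted p = 0.209). With 1456404_at the late phase of Adamts5 differed by -0.048 from the active and by -0.056 from the inflammation phase.

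Saline mice alone differed between days for 5 of the 7 members (F test in limma), where 54.1% of all genes did. Saline means of Adamts8 ran from 8.88 on day 2 to 9.72 on day 28 and those of Adamts9 from 7.72 on day 1 to 8.85 on day 21. These spans, 0.84 and 1.12, are larger than the differences between treatments given for both genes. Adamts4 spanned 1.37 between its saline means and missed the threshold (limma adjusted p = 0.055), and Adamts12 spanned 0.51 (limma adjusted p = 0.359). Age, day of harvest and any handling of the arrays by day cannot be told apart in these spans, and each comparison above was made within a day.

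The mice could also be followed 1 by 1. Each bleomycin mouse was expressed as its log2 deviation from the saline mean of its day, and the genes most like a member over the 56 bleomycin arrays were sought by Pearson's r, a description for which no test is given since the genes were picked for it, both levels of a pair coming from the same array. For Adamts4 these were Socs3, a feedback inhibitor of cytokine signalling (r = 0.939), Litaf, a lysosomal membrane protein (0.915), and Sting1, a sensor adaptor of innate immunity (0.893). For Adamts12 these were Col5a2, a chain of type V collagen (0.975), Nrcam, a cell adhesion molecule (0.956), and Eln, elastin (0.956). Within single days r ran from 0.798 to 0.986 for Adamts4 and Socs3 and from 0.78 to 0.979 for Adamts12 and Col5a2, over 8 mice each. Over the 55 saline arrays the same pairs had r of 0.511 and 0.43.

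Mice high in 1 of the pair Adamts4 and Adamts12 tended to be high in the other, with r within days from 0.456 on day 1 to 0.92 on day 35. On day 35 replicate 3 was the highest bleomycin mouse for both genes, at 11.23 and 10.14. More than 2-fold above the saline mean of the day were 5 and 6 of 8 mice for Adamts4 on days 1 and 2 and none for Adamts12. On days 7 and 14 all 8 mice were above it for both genes, and on day 21 6 of 8 were for each. By days 28 and 35 it was 4 of 8 mice for Adamts4 and 2 of 8 for Adamts12 on each day.

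**Figure D4:**
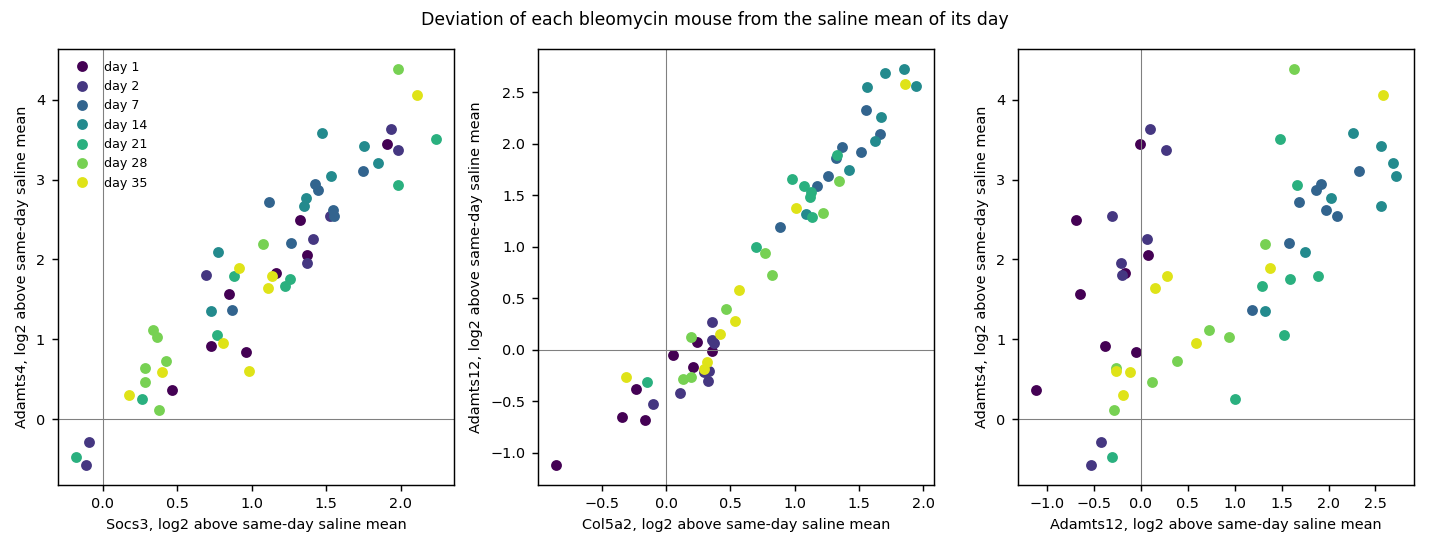
Each point is 1 of 56 bleomycin mice, coloured by day, placed by its log2 deviation from the saline mean of its day for the genes named on the axes. Adamts4 lies along Socs3 (r = 0.939) and Adamts12 along Col5a2 (r = 0.975), while in the right panel mice of days 1 and 2 reach high Adamts4 with Adamts12 near 0.

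Of 5 markers of activated fibroblasts 3 and 4 were higher and none lower on days 7 and 14, days on which Adamts12 was higher, where 25.7% and 21.9% of all genes were higher. Their mean log2 level ran from 8.22 to 8.48 in saline and from 8.93 to 9.22 in bleomycin mice on day 7, and from 8.18 to 8.37 and from 8.88 to 10.04 on day 14. Tnc, tenascin C of provisional matrix, differed by 2.82, Cthrc1, a secreted collagen triple helix repeat protein, by 1.60, and Lrrc15 by 1.19 on day 14 (each called higher). Adamts12 was also higher on day 21 (1.27), when 2 of the 5 markers were higher and none lower, beside 20.5% of all genes. On day 1 none of the 5 was higher, and on day 2, when Adamts12 differed by -0.16, 2 were higher and 1 lower. Of 8 general fibroblast markers 3 were lower on day 7 and 5 on day 14, with 1 higher on day 14, where 21.9% and 19.7% of all genes were lower. Of 8 macrophage markers 6, 5 and 7 were higher on days 7, 14 and 21, beside 25.7%, 21.9% and 20.5% of all genes. On day 1, when Adamts4 was already higher, 1 was higher and 1 lower. On day 7 their mean level ran from 10.57 to 10.98 in saline and from 11.48 to 11.73 in bleomycin mice. The part of these cells in either result was not tested.

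Of the 8 smooth muscle and pericyte markers all were lower on day 21, the day on which Adamts1 was lower, beside 18.9% of all genes. Cnn1, calponin of smooth muscle, differed by -1.61 and Myh11, smooth muscle myosin, by -1.32. The mean marker level ran from 10.72 to 11.31 in saline and from 9.80 to 10.35 in bleomycin mice. Of 8 endothelial markers 7 and of 8 general fibroblast markers 5 were also lower on day 21. On days 1 and 28, each with 6 of the 8 smooth muscle and pericyte markers lower, Adamts1 differed by -0.06 and -0.10 (limma adjusted p = 0.798 and 0.662). Against all saline groups Adamts1 differed by 0.0415 on day 21. The part of any of these cells in the Adamts1 value was not tested. Of 7 alveolar epithelial markers 5 were lower on days 2 and 14, and of 4 airway epithelial markers 3 on days 1 and 14. Of 5 mesothelial markers 3 were lower on days 7 and 14, and 1, Msln, was higher on day 7 (0.695). Of 4 neutrophil markers 3 were lower on day 7, when the fourth was higher. On each of days 1 and 2, 1 neutrophil marker was higher and none lower, with list medians of 0.40 and 0.66. On these 2 days 14.7% and 14.2% of all genes were higher. Of all genes 16.7%, 13.1%, 21.9% and 19.7% were lower on days 1, 2, 7 and 14.

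Genes of known substrates and partners were counted from lists drawn up with earlier results of these data in view. Of 11 hyalectans, link proteins and hyaluronan synthases 4 were higher and 1 lower on day 14, beside 21.9% and 19.7% of all genes, and the list's median was 0.18 where that of all genes was -0.01. Has2, a hyaluronan synthase, was higher by 2.60 (SE 0.37), Vcan, the substrate versican, by 1.42 (SE 0.22), and Bcan, brevican, was lower, at -1.30 (SE 0.29), on that day. Of 13 fibrillar procollagens and genes of their processing 5 were higher and 1 lower on day 7, beside 25.7% and 21.9% of all genes, with a median of 0.05 where that of all genes was -0.01. Col5a2 was higher by 1.34 (SE 0.16), Col5a1 by 1.03 (SE 0.14), and Pcolce2, a procollagen proteinase enhancer, was lower, at -1.05 (SE 0.14).

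Among 10 measured genes of other substrates and partners 6 were higher and 1 lower on day 7, with a median of 0.27, and of all genes 25.7% were higher and 21.9% lower that day. Tfpi2, a protease inhibitor of the matrix, differed by 1.78 (SE 0.17), Thbs2, thrombospondin 2, by 1.36 (SE 0.23) and Thbs1 by 0.96 (SE 0.23), each called higher. Of 11 genes of inhibition, activation and clearance 8 were higher and 1 lower on that day, with a median of 0.26. Timp1, an inhibitor of matrix metalloproteinases, was higher by 3.29 (SE 0.36), A2m, a broad protease trap, by 1.07 (SE 0.13), and Fbln1, a cofactor of Adamts1, was lower, at -0.61 (SE 0.12).

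No other family gene that was counted was called over 2-fold on any day. Of 8 other ADAMTS genes measured of 10 listed, 0 to 2 were higher and 1 to 4 lower on any day, where 11.5% to 25.7% of all genes were higher and 11.8% to 21.9% lower. On day 14, with 2 higher and 3 lower, Adamts16 differed by 0.62 (SE 0.09), Adamts7 by 0.38 (SE 0.06) and Adamts20 by -0.66 (SE 0.20), all called. The 7 ADAMTS-like genes, which lack the protease domain, had 1 higher and 3 lower on day 7, beside 25.7% and 21.9% of all genes. Adamtsl2 differed by 0.33 (SE 0.14), Adamtsl4 by -0.25 (SE 0.08) and Thsd4 by -0.20 (SE 0.08), and the list's median was -0.10 where that of all genes was -0.01.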

How the data were processed

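The authors amplified total RNA of whole lungs, hybridized it to Affymetrix Mouse 430 2.0 arrays and normalized the arrays by RMA; the deposited values are log2 levels of 32688 probesets on 111 arrays (56 bleomycin, 55 saline), from 2.746 to 14.69, with array medians from 8.614 to 8.731, and 0 pairs of arrays were identical. The genome build used for probe mapping is not given in the sources used here. The number of arrays limits the precision, and n counts mice.

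The annotation of the array platform gave 27871 probesets 1 gene, 314 several and 4503 none, and only the first were used. The most variable probeset stood for each of 15707 genes. The methods name a variance filter that leaves 1 value a gene, without saying how it chose, and genes with a human ortholog, which was not required here. The levels were modelled as 14 group means with limma 3.58.1 under R 4.3.3, using lmFit and then eBayes. From this model came the treatment effect on each day, the differences between phases and an F test over the saline groups, each with a Benjamini-Hochberg adjustment over all genes. The members and gene lists were chosen with earlier results of these data known. All members were named with every probeset, at most 3 genes of each list by size of change on the day with most calls (the earliest where days tied), and the 3 genes most like each differentially expressed member. Endothelial, smooth muscle, fibroblast, macrophage, epithelial, mesothelial and neutrophil marker lists were counted. The fit was tested on simulated arrays.

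Each result was recomputed with the brightest probeset, with probesets averaged, without the 30% dimmest genes, after a repeat of quantile normalization, after centring on array medians, and with 1 fit per day, all saline groups as control, array weights, a variance trend, a replicate block and leaving out arrays. Exact permutation tests of probeset differences and leaving out single bleomycin arrays were added after the data were seen. Promoters were read from RefSeq windows.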

Additional observations from a re-analysis of the deposited data

Results flagged for a closer look

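In 98 groups of 7 or 8 mice and 1 gene, 5 held a mouse set apart from the other mice by a wide gap, and chance alone gives about 1 in 20 groups. Adamts1 had a low mouse at 10.68 among saline mice of day 2 (replicate 8) and a high one at 11.91 among saline mice of day 14 (replicate 7). Adamts4 had a high mouse at 8.03 among saline mice of day 14 (replicate 3) and one at 11.23 among bleomycin mice of day 35 (replicate 3). Adamts12 had a low mouse at 7.29 among bleomycin mice of day 21 (replicate 4).

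The response to bleomycin differed between phases, by the test of the difference itself in limma, for 12 pairs of a gene and 2 phases. Between the active and the inflammation phase it differed by 2.30 for Adamts12, by -0.38 for Adamts8 and by -0.83 for Adamts9. Between the late and the active phase it differed by -1.1998 for Adamts4, -1.23 for Adamts12, -0.26 for Adamts8, -0.31 for Adamts15 and 0.35 for Adamts5. Between the late and the inflammation phase it differed by 1.06 for Adamts12, -0.65 for Adamts8, -1.05 for Adamts9 and 0.42 for Adamts5. Over all genes 20.4%, 11.9% and 16.3% were higher and 15.8%, 14.9% and 12.2% lower in these contrasts, in this order. With 1437785_at in place of 1431399_at the values of Adamts9 were -0.085 and -0.169 (limma adjusted p = 0.59 and 0.209). With 1456404_at in place of 1456969_at those of Adamts5 were -0.048 and -0.056 (limma adjusted p = 0.686 and 0.617).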

How the results depend on the processing

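The 15 higher pairs of a member and a day became 13 to 18 under the 9 alternatives and the replicate block, the 10 lower ones 7 to 10, and the 12 differences between phases 8 to 13, while 5 members differed between saline days under both alternatives run. Without 1 replicate number the counts ran from 12 to 15 higher, from 5 to 10 lower and from 9 to 12 between phases; 5 were lower without replicate 5 and 6 without replicate 7, and the cause was not tested. The sources used here do not say that the replicate number pairs mice. Of 55 pairs of the same number 23 correlated above 0.1, with a median r of 0.06, and 10 mice correlated best with their own number. No rate expected without pairing was computed, so these values do not settle it. With the replicate number as a block the counts were 16, 10 and 12. Without bleomycin day 21 replicate 4 they were 17, 9 and 12, and without bleomycin day 35 replicate 3 they were 16, 10 and 12. With the probeset of highest mean the direction turned for Adamts5 on day 21 (-0.24) and in the late phase against the inflammation (-0.056) and the active phase (-0.048), and for Adamts9 on days 7 (0.28), 14 (0.29), 21 (0.39) and 35 (0.21). These are 1456404_at and 1437785_at, and 1422561_at of Adamts5 gave -0.24 on day 21. With all saline groups as control it turned for Adamts1 on day 21 (0.0415), Adamts5 on day 21 (-0.34), Adamts8 on day 2 (-0.0521) and Adamts9 on day 1 (-0.14). Repeated quantile normalization, subtraction of array medians and the variance trend changed no call of a member. Over the 49 pairs, 1 fit per day took away 3 calls, array weights took away 3 and added 2, and the mean of probesets took away 3 and added 3. The filter on dim genes left out Adamts5.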
